A study of Mus musculus with 22 samples.

Results

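Hemoglobin and the other transcripts of red blood cells were followed in the distal colon of 22 mice through 6 genes, Hbb-bs, Hbb-bt, Hba-a1, Hba-a2, Alas2 and Slc4a1, out of 46078 genes in the count table. The 6 genes were found by their symbols, and they had been chosen on measured values, namely the rise of Alas2 and Hbb-bs in Winnie-Prolapse over Winnie. The groups were 8 C57BL/6 controls labelled wild type (4 males and 4 females, 14 weeks old), 7 Winnie mice labelled inflamed (3 males and 4 females, 14 weeks) and 7 Winnie mice with rectal prolapse labelled severely inflamed (4 males and 3 females, 18 weeks), called Winnie-Prolapse here. Winnie mice develop a spontaneous chronic colitis from a missense mutation in Muc2, the gene of the main secreted intestinal mucin, so every Winnie and Winnie-Prolapse animal carried it, and no group had prolapse without it. The libraries were poly(A) RNA from whole pieces of distal colon, in which fewer red cells and less RNA per red cell cannot be told apart.

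Adult hemoglobin is a tetramer of alpha and beta chains, and mice of the C57BL/6 background make the beta chain from Hbb-bs and Hbb-bt and the alpha chain from Hba-a1 and Hba-a2. Alas2 is the erythroid form of the enzyme that begins heme synthesis, and Slc4a1 encodes band 3, the anion exchanger of the red cell membrane. Mature red cells have no nucleus, and young ones, the reticulocytes, still carry globin RNA into the blood, so these transcripts reach any tissue that holds blood.

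The members form near-identical pairs, which bears on how far their counts can be separated. Hbb-bs lay at chr7:103826534-103828096 and Hbb-bt at chr7:103812524-103813996, both on the minus strand of GRCm38. Hba-a1 lay at chr11:32283511-32284465 and Hba-a2 at chr11:32296489-32297298 on the plus strand, Alas2 at chrX:150547375-150570638 on the plus strand, and Slc4a1 at chr11:102348824-102366203 on the minus strand. In the reference transcripts the coding sequences of Hbb-bs and Hbb-bt had 444 bases with 1 difference, C417T counted from the first base of the start codon, and those of Hba-a1 and Hba-a2 had 429 bases with 1 difference, C381T. Neither difference changed an amino acid. The stretches around these bases are shown because inside the coding sequence only the capital base can tell the members of a pair apart.
Hbb-bs: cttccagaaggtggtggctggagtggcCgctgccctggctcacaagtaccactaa
Hbb-bt: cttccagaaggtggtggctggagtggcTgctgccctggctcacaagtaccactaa
Hba-a1: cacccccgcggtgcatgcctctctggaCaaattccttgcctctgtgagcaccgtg
Hba-a2: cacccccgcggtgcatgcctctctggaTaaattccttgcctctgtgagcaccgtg

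Reads were 100 bases long, and stretches of that length shared with another gene made up 62.6% of the Hbb-bs transcript, 54.8% of Hbb-bt, 56.5% of Hba-a1 and 74.5% of Hba-a2. The other gene was always the partner of the pair. No 100-base stretch of Alas2 or Slc4a1 occurred in another gene. How the counting treated reads shared within a pair is not given in the sources used here, so the split between partners is uncertain, while the sum of the 4 globin genes and the values of Alas2 and Slc4a1 do not depend on the split. Reads that were dropped because both partners matched would lower that sum.

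The 250 bases before the transcript start, from RefSeq on GRCm38.p6, are shown for 4 members because these genes moved together. Capitals mark matches to GATA forms (AGATAA or AGATAG or TGATAA or TGATAG), to CCNCNCCCN, the pattern of the CACCC box, to CCAAT, and to TATA forms (ATATAA or TATAAA), each searched on both strands, so that overlapping matches run together.
Hbb-bs, chr7:103827929-103828178, minus strand: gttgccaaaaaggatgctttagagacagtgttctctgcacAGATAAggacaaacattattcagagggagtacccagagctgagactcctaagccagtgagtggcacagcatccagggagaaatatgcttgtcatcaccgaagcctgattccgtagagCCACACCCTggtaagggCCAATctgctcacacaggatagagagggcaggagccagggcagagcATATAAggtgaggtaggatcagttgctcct
Hbb-bt, chr7:103813924-103814173, minus strand: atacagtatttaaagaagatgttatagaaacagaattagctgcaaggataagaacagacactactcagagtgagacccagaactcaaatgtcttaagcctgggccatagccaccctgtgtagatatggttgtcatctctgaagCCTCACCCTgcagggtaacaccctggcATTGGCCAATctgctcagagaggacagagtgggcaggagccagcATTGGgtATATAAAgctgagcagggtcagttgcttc
Hba-a1, chr11:32283422-32283671, plus strand: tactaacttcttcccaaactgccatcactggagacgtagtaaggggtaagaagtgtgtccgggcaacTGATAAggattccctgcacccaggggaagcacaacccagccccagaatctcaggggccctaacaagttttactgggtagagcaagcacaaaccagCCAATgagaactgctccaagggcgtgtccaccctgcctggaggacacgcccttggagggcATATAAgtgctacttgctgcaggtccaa
Alas2, chrX:150547167-150547416, plus strand: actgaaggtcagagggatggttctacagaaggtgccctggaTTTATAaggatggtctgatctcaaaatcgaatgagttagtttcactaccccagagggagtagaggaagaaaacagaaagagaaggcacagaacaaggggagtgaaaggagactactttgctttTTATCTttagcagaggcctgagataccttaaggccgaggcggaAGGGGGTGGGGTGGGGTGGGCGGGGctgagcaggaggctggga

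Hbb-bs held all 4 patterns, as did 0.377% of 32851 mouse promoters of the same length. A GATA form was in 26.5% of those promoters, CCNCNCCCN in 45.8%, CCAAT in 33.8% and a TATA form in 16.7%, so each match alone is common. The promoter of Hba-a2, chr11:32296242-32296491, was the Hba-a1 promoter shifted by 3 bases, with 247 of 247 compared bases identical. A match is a description of letters and not a bound site.

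Library totals ran from 24817527 to 36344372 counts. Levels are given as CPM, the counts scaled to a common library total, on which 3 counts equal 0.0825 to 0.121 CPM. Milk protein genes took 18.0% of the counts of Winnie-Prolapse replicate 6 and at most 0.00547% of any other library, so this library stands apart, and the values that it moves are also given without it. Mitochondrial genes took 7.05% of the counts on average in the controls, 6.17% in Winnie and 4.98% in Winnie-Prolapse. All 22 libraries fitted their sex labels.

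The 4 globin genes together took a median of 171 CPM in the controls (lowest 15.5, highest 474), 16.2 CPM in Winnie (5.89 to 56.0) and 532 CPM in Winnie-Prolapse (104 to 1455). The corresponding means were 191 ± 174 CPM (SD, n = 8), 25.9 ± 17.9 CPM (n = 7) and 533 ± 459 CPM (n = 7), or 380 ± 235 CPM (n = 6) without Winnie-Prolapse replicate 6. All 7 Winnie-Prolapse libraries were above all Winnie libraries, which is the direction the genes were chosen for. The controls were the most spread out, with a 30.6-fold range among 8 libraries, and replicates 4, 7 and 8 lay within the Winnie range while the other 5 lay above it.

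**Figure D1:**
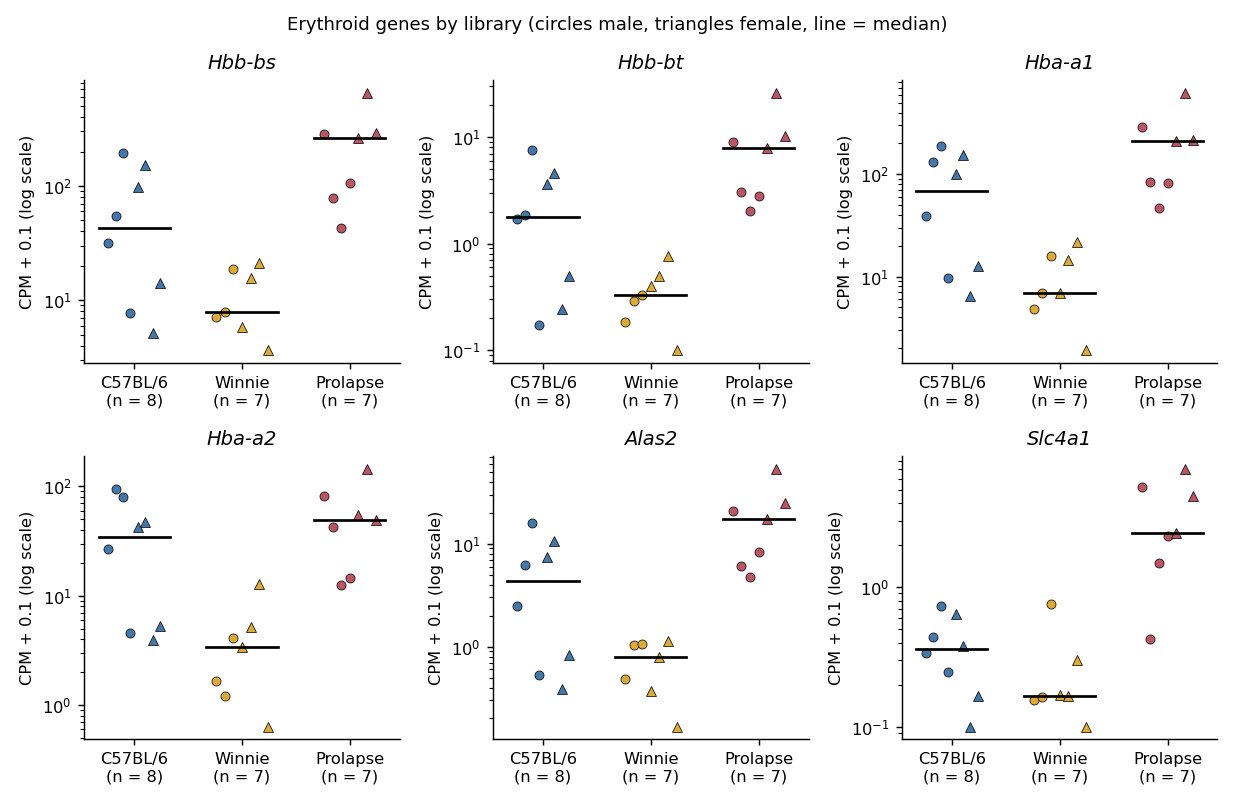
Level of each of the 6 genes in every library, as CPM plus 0.1 on a log scale, by group; circles are males, triangles females and lines medians. 3 control libraries lie among the Winnie libraries for each globin gene and Alas2, and Slc4a1 is near the bottom of the scale outside Winnie-Prolapse.

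Hbb-bs, the main beta-globin gene, had 5.07 CPM in the lowest, 43.1 in the median and 196 CPM in the highest C57BL/6 library. In Winnie it had 3.55, 7.82 and 21.1 CPM, and in Winnie-Prolapse 42.5, 261 and 657 CPM. Winnie lay at the low end of the control range, with 6 of 7 libraries inside it, while 4 of 7 Winnie-Prolapse libraries were above every control and the other 3, at 42.5 to 107 CPM, were inside the control range. Hbb-bt, the minor beta-globin gene, had 0.0723, 1.67 and 7.46 CPM in C57BL/6, 0, 0.231 and 0.662 CPM in Winnie and 1.94, 7.71 and 26.0 CPM in Winnie-Prolapse, in the same order. One control and 2 Winnie libraries held 3 or fewer Hbb-bt counts, so its lowest values are at the limit of detection.

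Hba-a1 had 6.41, 69.1 and 190 CPM in the lowest, median and highest control, 1.81, 6.82 and 21.5 CPM in Winnie and 46.7, 210 and 628 CPM in Winnie-Prolapse. Its pattern was that of Hbb-bs, with 3 controls inside the Winnie range and 3 Winnie-Prolapse libraries inside the control range. Hba-a2, its partner, had 3.84, 34.7 and 94.5 CPM in C57BL/6, 0.536, 3.31 and 12.7 CPM in Winnie and 12.3, 49.0 and 144 CPM in Winnie-Prolapse. Here 6 of 7 Winnie-Prolapse libraries lay inside the control range, and Winnie-Prolapse replicate 3, at 12.3 CPM, lay under the highest Winnie library.

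Alas2, which commits erythroid precursors to heme synthesis, had 0.290, 4.27 and 15.8 CPM in C57BL/6, 0.0670, 0.689 and 1.04 CPM in Winnie and 4.66, 17.1 and 53.2 CPM in Winnie-Prolapse. The same 3 controls that were low in globin, replicates 4, 7 and 8, were the lowest in Alas2, at 0.290 to 0.729 CPM. Slc4a1 was the weakest member, with 0, 0.257 and 0.635 CPM in C57BL/6, 0, 0.0656 and 0.656 CPM in Winnie and 0.323, 2.35 and 6.93 CPM in Winnie-Prolapse. That was 0 to 20 counts a library in the controls, 0 to 17 in Winnie and 10 to 172 in Winnie-Prolapse, and 5 of 7 Winnie libraries held 3 counts or fewer.

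Per kilobase of exon, mean control levels were 99.3 CPM for Hba-a1, 91.0 for Hbb-bs, 57.1 for Hba-a2, 3.47 for Hbb-bt, 2.28 for Alas2 and 0.0573 for Slc4a1. In Winnie-Prolapse the order began with Hbb-bs at 320 CPM per kilobase and Hba-a1 at 274, then Hba-a2 at 85.1, Hbb-bt at 12.3, Alas2 at 8.00 and Slc4a1 at 0.664. The difference between the first 2 genes of each order was not tested. With most 100-base stretches shared within a pair, the globin levels are lower bounds if shared reads were left out.

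Winnie was compared with C57BL/6 at the same age, which asks whether colitis without prolapse goes with another level of red cell transcripts. In edgeR's quasi-likelihood fit over 17289 genes, 5 members were tested and Slc4a1 did not pass the filter on low counts. None of the 5 reached the call limit of the study's methods, an adjusted p under 0.001 with at least a 1.5-fold change, which 0.0925% of genes reached. All 5 had an unadjusted p under 0.05, as did 39.9% of all genes tested, and all 5 were lower at a wider limit of adjusted p under 0.05 with the same fold, which 8.53% of genes passed downwards and 7.42% upwards.

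Hba-a2 fell by 3.13 ± 0.81 on the log2 scale (SE, adjusted p = 0.0132), which is 8.73-fold lower in Winnie. Hbb-bt fell by 3.09 ± 0.86 (adjusted p = 0.0180), Alas2 by 3.08 ± 0.80 (adjusted p = 0.0138), Hba-a1 by 2.90 ± 0.75 (adjusted p = 0.0131) and Hbb-bs by 2.56 ± 0.73 (adjusted p = 0.0195). The median over the 5 was -3.08, against -0.01 over all genes tested. The Winnie libraries are also those against which the members were chosen, so low Winnie values were favoured by the choice.

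These decreases held at the wider limit without any 1 of the 15 libraries, with adjusted p between 0.00622 and 0.0450. Leaving out single libraries does not remove the choice of the members against Winnie, so these fits are no independent support. Without Winnie replicate 6 the Hba-a2 decrease was the largest, at -3.83. DESeq2 called 3 of the members at the strict limit and limma-voom 0, and with limma-voom none of the 5 passed the wider limit either, at log2 changes of -2.90 to -1.82 and adjusted p of 0.0511 to 0.125.

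Winnie-Prolapse against C57BL/6 gave the comparison of the prolapsed colon with the controls, in which prolapse and age cannot be told apart. It shares the 8 controls with the comparison above and its Winnie-Prolapse libraries are those whose high values chose the members. Of 17397 genes tested 18.3% were called, and 16.7% were higher and 17.7% lower at the wider limit. Of the 6 members, Slc4a1 was called, and 4 were higher at the wider limit.

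Slc4a1 was 12.6-fold higher, a log2 change of 3.66 ± 0.65 (SE, adjusted p = 0.000282), and 6 of 7 Winnie-Prolapse libraries were above the highest control. It was called without any 1 of the 15 libraries, at log2 changes of 3.29 to 3.97. With C57BL/6 and Winnie alone Slc4a1 did not pass the filter on low counts. It entered this test through its counts in Winnie-Prolapse, the group whose high values chose the members. Leaving out single libraries does not remove that choice, so the call is no independent support. With limma-voom the adjusted p of Slc4a1 was 0.00241, short of the strict limit, and a filter of 10 counts in every library removed it.

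Hbb-bt rose by 1.99 ± 0.80 on the log2 scale (adjusted p = 0.0461), Alas2 by 1.98 ± 0.78 (adjusted p = 0.0424) and Hbb-bs by 1.97 ± 0.77 (adjusted p = 0.0415), in each case about 3.92-fold to 3.98-fold. Hba-a1, at 1.63 ± 0.75 (adjusted p = 0.0767), and Hba-a2, at 0.73 ± 0.71 (adjusted p = 0.396), did not pass. The 3 increases rested on narrow margins. Leaving out any 1 of C57BL/6 replicates 1, 2, 4, 5 and 8 or Winnie-Prolapse replicates 1, 5, 6 and 7 ended the wider call of Hbb-bs (log2 change 1.40 to 2.05) and of Alas2 (1.37 to 2.04), and the same libraries or C57BL/6 replicate 7 ended that of Hbb-bt (1.29 to 2.08). The lowest of these values came without Winnie-Prolapse replicate 6, the library with the milk genes, where Hba-a1 was at 1.0 and Hba-a2 at 0.20. Without C57BL/6 replicate 3, the control with the most globin, Hba-a1 passed the wider limit at 1.95 (adjusted p = 0.0484).

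**Figure D2:**
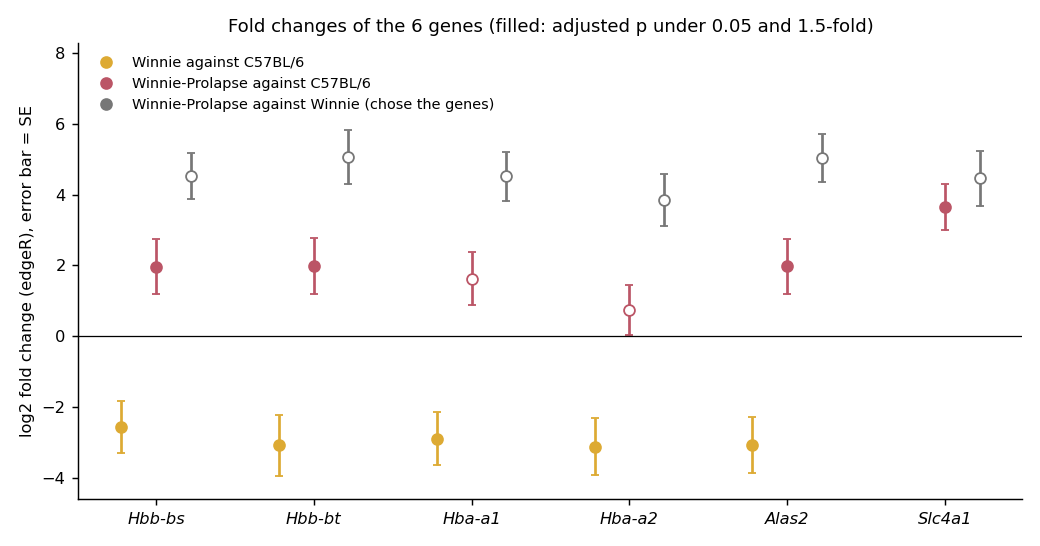
Log2 fold change of each gene in the 3 comparisons, with bars of 1 standard error from the edgeR fits; filled points passed an adjusted p under 0.05 with a 1.5-fold change, and grey points show the comparison the genes were chosen on, given without a test. The 5 genes tested in Winnie lie between -3.13 and -2.56, and Slc4a1 is the highest of the red points at 3.66.

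Winnie-Prolapse against Winnie is the comparison the genes were chosen on, so its values are a description. The log2 differences were 5.07 for Hbb-bt, 5.05 for Alas2, 4.53 for Hbb-bs, 4.52 for Hba-a1, 4.47 for Slc4a1 and 3.84 for Hba-a2. Hbb-bs, Hbb-bt, Hba-a1 and Alas2 did not overlap between the groups, and 0.411% of 17041 genes were higher without overlap. No gene of the whole table was called here by edgeR at the strict limit (0% of 17041 genes, with 4743 at an unadjusted p under 0.05), while DESeq2 called 678 genes and limma-voom 0. At the wider limit 4.27% of genes were higher and 2.72% lower, and the members, chosen for their rise here, are not counted against these shares. Without Winnie replicate 3, which held 17 of the Slc4a1 counts, the Slc4a1 difference was 5.36. Without Winnie-Prolapse replicate 6 the differences were smaller, at 4.43 for Alas2, 4.36 for Hbb-bt, 4.08 for Slc4a1, 3.93 for Hbb-bs, 3.87 for Hba-a1 and 3.30 for Hba-a2.

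Markers of other cells differed between the same groups, and their part in the member values was not tested. The sum of 8 colon epithelium markers had a median of 9653 CPM in C57BL/6 (8242 to 17426), 7594 in Winnie (5074 to 11501) and 4761 CPM in Winnie-Prolapse (3403 to 7750). The summed level of 8 mature neutrophil markers ran from 0.833 to 3.82 CPM in C57BL/6, 2.26 to 137 in Winnie and 74.1 to 1386 CPM in Winnie-Prolapse. The 10 neutrophil precursor markers, genes of the bone marrow stage, ran from 0.290 to 1.31, 0.656 to 32.6 and 15.1 to 1181 CPM. The 1181 CPM was Winnie-Prolapse replicate 6, the library with the milk genes, where Ltf alone had 1123 CPM. The next library had 331 CPM. In Winnie-Prolapse Ltf, Mmp8, Chil3 and Ngp averaged 13.1 to 269 CPM, and every other gene of this list at most 0.238 CPM. Endothelial markers, 10 genes of the vessel wall, ran from 69.3 to 97.4, 44.5 to 166 and 91.0 to 243 CPM, and 13 platelet markers from 9.85 to 29.5, 10.7 to 26.4 and 9.51 to 145 CPM. The squamous epithelium markers, 6 genes of stratified linings such as the anal canal, ran from 1.88 to 2.90, 1.54 to 47.8 and 1.51 to 2635 CPM.

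The members varied together across libraries. Over the 22 libraries, with group means removed, Pearson's r of log2 CPM with Alas2 was 0.97 for Hbb-bs, 0.97 for Hba-a1, 0.95 for Hbb-bt, 0.87 for Hba-a2 and 0.80 for Slc4a1. Without Winnie-Prolapse replicate 6 these values were 0.97, 0.97, 0.94, 0.86 and 0.77. They are descriptions, in which all points share their library and its depth. The genes closest to Alas2 that were not members were Clint1 (0.84), Tbc1d8b (0.83), Kmt2c (0.80), Sik3 (0.79), 1700001O22Rik (0.78), Zfp110 (0.76), Sh3rf1 (0.76) and Gm12207 (0.76), out of 16910 genes with a median of -0.01. For the summed globins they were Tbc1d8b (0.81), Clint1 (0.80), 1700001O22Rik (0.79), Kmt2c (0.78), Zfp110 (0.78), Zfp65 (0.76), Gigyf2 (0.76) and Gm12207 (0.75). By Spearman rank correlation, also with group means removed, 6 of the first 8 and 8 of the second 8 were again among the closest 8. With the group means kept, Pearson's r was only 0.07 to 0.53 for the first 8 and -0.01 to 0.52 for the second 8. For the members with Alas2 it was then 0.89 to 0.99.

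**Figure D3:**
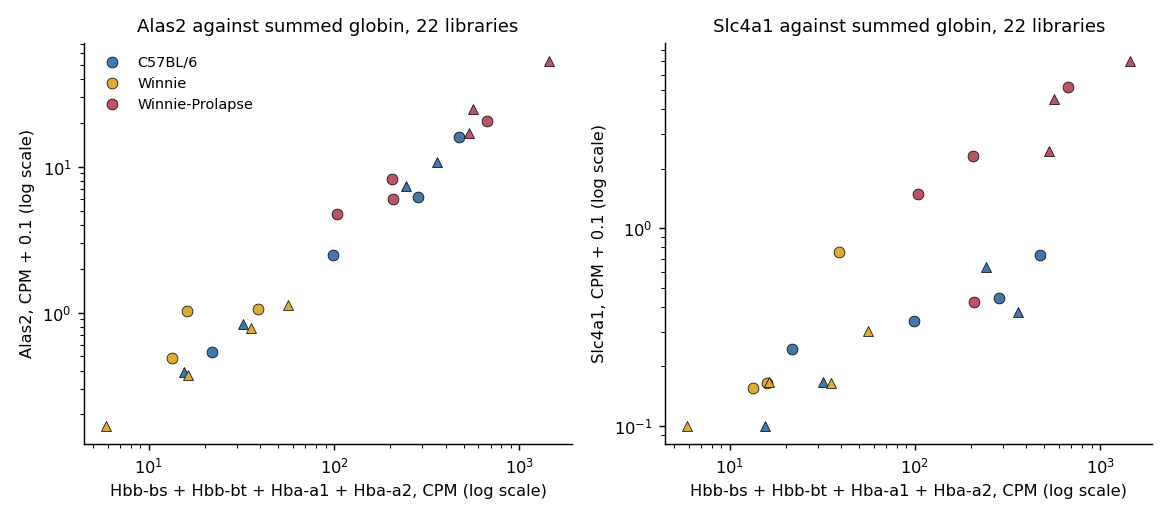
Alas2 (left) and Slc4a1 (right), as CPM plus 0.1, against the summed CPM of the 4 globin genes in each of 22 libraries, both axes on log scales; circles are males and triangles females. Alas2 lies along 1 band in all 3 groups, while 6 of 7 Winnie-Prolapse libraries have more Slc4a1 than every control, including controls with as much globin.

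The composition of the red cell RNA was read as ratios within a library, which can still vary with how much of it there was. These ratios were not tested. Alas2 gave 25.0 ± 5.3 counts per 1000 globin counts in the controls (SD, n = 8), 25.4 ± 15.5 in Winnie (n = 7) and 36.8 ± 6.6 in Winnie-Prolapse (n = 7). All 7 Winnie-Prolapse libraries were above the control median and 4 above every control. Among the controls, replicates 4, 7 and 8, low in globin, gave 18.7 to 22.7. Replicates 3, 5 and 6, at 243 to 474 CPM of globin, gave 29.5 to 33.4, but replicate 2, at 283 CPM, gave 21.7. In Winnie-Prolapse the library lowest in globin, replicate 3 at 104 CPM, had the highest ratio, 45.0. The part of the amount of globin in these ratios was not tested. Slc4a1 gave 2.08 ± 2.01, 4.95 ± 5.49 and 7.21 ± 4.05 counts per 1000 globin counts, the control ratios resting on 0 to 20 Slc4a1 counts a library. Here 4 of 7 Winnie-Prolapse libraries were above every control, and the Winnie mean rested on replicate 3, at 16.9, with the next Winnie library at 4.17.

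The alpha share of all globin counts was 63.1 ± 8.3% in the controls, 52.4 ± 8.0% in Winnie and 52.8 ± 5.5% in Winnie-Prolapse. All 7 Winnie-Prolapse libraries and 6 of 7 Winnie libraries lay under the control median. Hba-a2 made up 32.9 ± 6.4% of the alpha counts in the controls, 25.4 ± 7.7% in Winnie and 21.3 ± 5.9% in Winnie-Prolapse, where 6 of 7 libraries were below every control. The exception was replicate 2, at 33.6%. Hbb-bt made up 3.06 ± 1.09%, 2.19 ± 1.61% and 3.37 ± 0.63% of the beta counts, with no Winnie-Prolapse library outside the control range. Without Winnie-Prolapse replicate 6 the means of this group were 36.8 for Alas2 and 7.62 for Slc4a1 per 1000 globin counts, and 52.8%, 21.7% and 3.30% for the alpha, Hba-a2 and Hbb-bt shares. The shares within a pair carry the uncertainty of the shared reads named above.

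**Figure D4:**
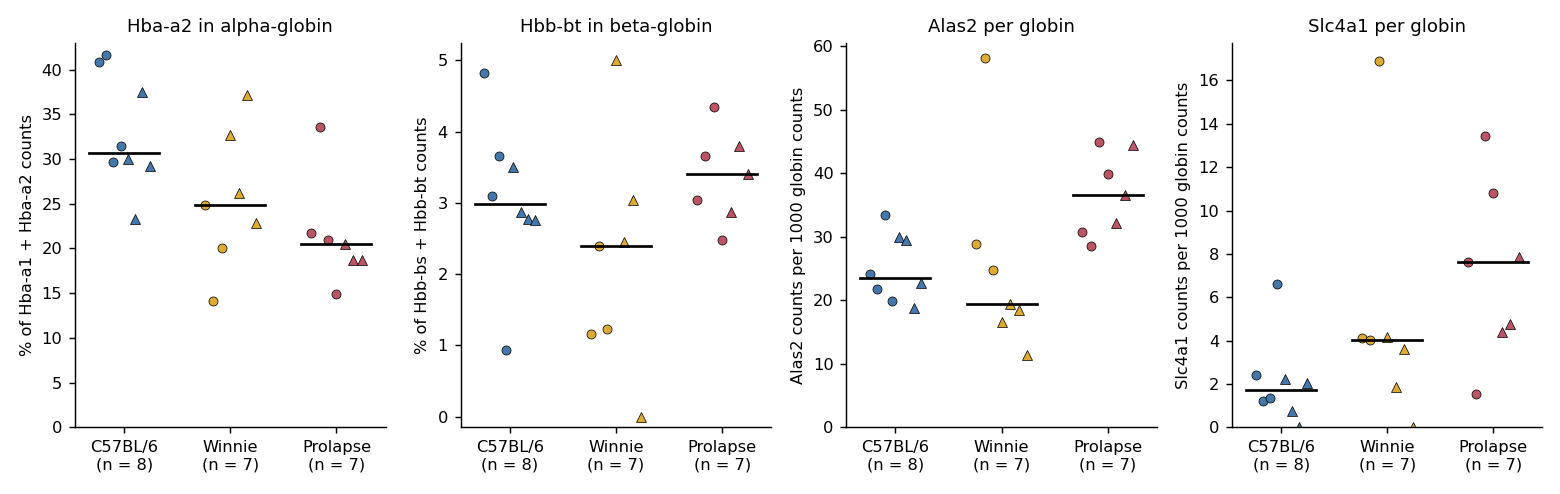
The 4 ratios by library and group: Hba-a2 as a percent of alpha-globin counts, Hbb-bt as a percent of beta-globin counts, and Alas2 and Slc4a1 counts per 1000 globin counts; circles are males, triangles females and lines medians. In Winnie-Prolapse the Hba-a2 share was below every control in 6 of 7 libraries and Alas2 per globin above the control median in 7 of 7.

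Males and females were compared in 1 fit of the 22 libraries that also held the group. None of the 6 members was called by edgeR, with log2 differences (male minus female) of -0.88 to -0.02 (the last, for Slc4a1, turned to 0.21 with DESeq2), 0 members at an unadjusted p under 0.05 and adjusted p of at least 0.966. Of 17769 genes 0.0675% were called. DESeq2 and limma-voom called 0 members. The globin sum of the 4 Winnie-Prolapse males ran from 104 to 667 CPM and that of the 3 females from 532 to 1455 CPM. The interaction of sex with group passed for no member in any of the 3 pairs of groups, with 0 members under an unadjusted limit of 0.05 and 0 by DESeq2 and limma-voom. The smallest unadjusted p of a member in these edgeR fits was 0.0954. Over all genes it passed for 0% in Winnie against C57BL/6, 0% in Winnie-Prolapse against C57BL/6 and 0.0113% in Winnie-Prolapse against Winnie.

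Other globin genes did not share the members' pattern. The embryonic genes Hbb-bh1, Hbb-bh2, Hbb-y and Hba-x and the theta-type genes Hbq1a and Hbq1b were at 0 to 0.184 CPM in every library. Cygb, cytoglobin of fibroblast-type cells, was at 19.5, 18.4 and 17.8 CPM on average in C57BL/6, Winnie and Winnie-Prolapse, with log2 changes of 0.00 and -0.06. Ngb, neuroglobin of neurons, fell from 6.54 CPM in C57BL/6 to 1.05 CPM in Winnie-Prolapse (log2 change -2.56), a called decrease. Mb, myoglobin of striated muscle, was at 0.0386 to 0.133 CPM in the controls and reached 12.1 CPM in a Winnie and 171 CPM in a Winnie-Prolapse library.

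Of 18 genes of the red cell membrane and its skeleton, 11 were tested in Winnie and 12 in Winnie-Prolapse. In Winnie 3 were lower and 0 higher at the wider limit, namely Tmod1 (-1.14), Add2 (-0.92) and Dmtn (-0.80), and the list median was -0.80. In Winnie-Prolapse 3 were lower and 0 higher, namely Add2 (-1.60), Ank1 (-1.02) and Dmtn (-0.73), with a median of -0.27, so the rise of Slc4a1 was not seen across the list. Tmod1, Add2 and Dmtn cap or bundle actin in the membrane skeleton, Ank1 ties band 3 to it, and all are also made outside red cells. The list genes of highest CPM, Epb41 at 92.4 CPM, Aqp1 at 36.5, Xk at 27.3 and Ank1 at 9.61 over all libraries, did not pass in Winnie.

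Of 15 erythroid regulators and maturation genes, 7 were tested in Winnie, where only Tspo2 passed (-0.69). In Winnie-Prolapse 8 were tested, 3 were higher and 1 lower. Trim10, a RING finger protein of erythroid maturation, rose from 0.132 CPM in the controls to 8.62 CPM (log2 change 6.06, called). In Winnie it averaged 1.05 CPM (0.0656 to 3.65), above the control mean, while the tested members were lower there. Nfe2, a factor of globin gene and platelet control, rose by 2.29 on the log2 scale in Winnie-Prolapse. The genes of highest CPM in the list, Bnip3l (97.5 CPM), Fbxo7 (20.9), Ube2o (17.4) and Zfpm1 (4.88), are made in many tissues and did not pass in either comparison. Further factors of the erythroid lineage were picked for naming after their values were seen. Gata1 reached 0.110 CPM at most, Klf1 0.663 CPM and Epor, the erythropoietin receptor, 0.688 CPM, and the highest values of Klf1 and Epor were in controls. Tal1 averaged 0.755 CPM in the controls and 1.20 CPM in Winnie-Prolapse, where it reached 2.74 CPM. It was among the 3 genes higher in Winnie-Prolapse at the wider limit. Without Winnie-Prolapse replicate 6 Tal1 was still higher at that limit (log2 change 0.79, edgeR adjusted p = 0.0272).

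**Figure D5:**
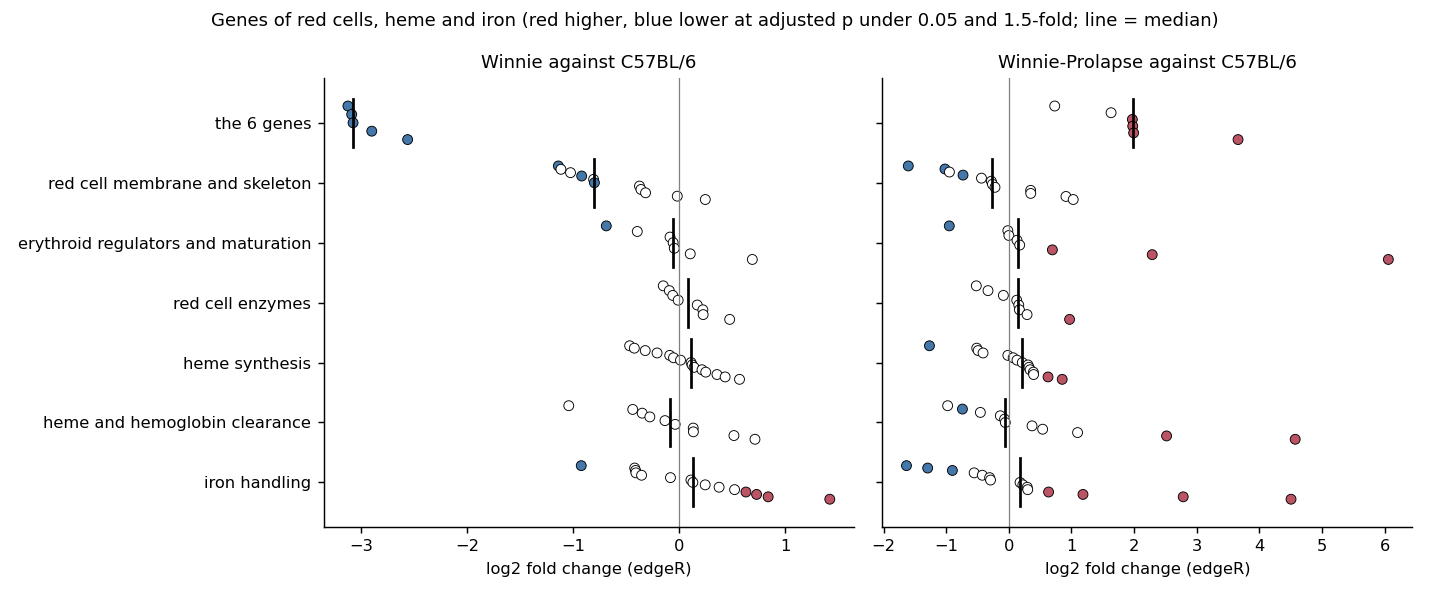
Log2 fold change of each tested gene of 7 groups in Winnie (left) and Winnie-Prolapse (right) against C57BL/6; red points were higher and blue points lower at an adjusted p under 0.05 with a 1.5-fold change, and lines are medians. The tested members stand off at -3.08 and 1.97 in their medians, and the medians of the other 6 groups lie between -0.80 and 0.21.

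Of 15 heme synthesis genes other than Alas2 none passed in Winnie (edgeR, 6 at an unadjusted p under 0.05, median 0.11). In Winnie-Prolapse 11 of 15 had an unadjusted p under 0.05, beside 58.5% of all genes tested, and the median was 0.21. At the wider limit 2 were higher, among them Alas1 (0.85), the housekeeping counterpart of Alas2, and Abcb6, a porphyrin transporter, was lower (-1.27). Alas1 averaged 96.1 CPM in the controls, 134 in Winnie and 165 CPM in Winnie-Prolapse. Of the other genes of high CPM, the mitochondrial iron importer Slc25a37 (0.31) and Tmem14c (-0.02) did not reach the fold limit. Of 8 red cell enzymes none passed in Winnie (3 at an unadjusted p under 0.05) and 1 was higher in Winnie-Prolapse, Bpgm, which makes the 2,3-bisphosphoglycerate that loosens oxygen from hemoglobin (0.97, called).

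Genes that clear hemoglobin and heme rose in Winnie-Prolapse in 2 of 11 tested cases. Hp, haptoglobin, which binds free hemoglobin and is also an acute-phase and neutrophil product, averaged 1.99 CPM in the controls, 2.73 in Winnie and 47.2 in Winnie-Prolapse (log2 change 4.57 against C57BL/6, called). Hmox1, heme oxygenase, averaged 4.36, 6.80 and 24.3 CPM (2.52, called). Lrp1, the hemopexin receptor, was lower (-0.74), and Slc46a1 (-0.98), the heme transporter Slc48a1 (-0.07) and Hmox2 (-0.06) did not pass. In Winnie none of 10 tested genes passed (edgeR, 4 at an unadjusted p under 0.05).

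Of 15 iron handling genes tested, 4 were higher and 1 lower in Winnie, and 4 were higher and 3 lower in Winnie-Prolapse. Slc11a1, the iron and manganese pump of phagocytes, was higher in Winnie (1.42) and in Winnie-Prolapse (2.78, called). Trf, transferrin, rose by 0.84 and 4.50 on the log2 scale, but 1 Winnie-Prolapse library held 1415 CPM of it, and without Winnie-Prolapse replicate 6 the second value was 1.33 (called). Erfe, erythroferrone, the hormone by which erythroblasts lower hepcidin, was higher by 0.73 in Winnie and 0.63 in Winnie-Prolapse, the latter at 0.57 (adjusted p = 0.0553) without that library. Leaving it out gave 3 higher and 1 lower in Winnie-Prolapse. Slc40a1, ferroportin, the iron exporter, was lower in both (-0.92 and -1.63), and Tfrc, the transferrin receptor, was higher in Winnie-Prolapse (1.18). The ferritin chains Fth1 and Ftl1, the genes of highest CPM in the list at 1678 and 479 CPM, did not reach the fold limit in either comparison.

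Of 14 oxygen sensing and response genes tested, 1 was higher and 0 lower in Winnie and 3 were higher and 0 lower in Winnie-Prolapse. Hif1a, the oxygen-regulated transcription factor, passed in Winnie (0.82) and in Winnie-Prolapse (1.28, called), where the glucose transporter Slc2a1 (0.65, called) and adrenomedullin, Adm (1.40), also passed. The list medians were -0.05 and 0.07. Of the 13 platelet markers, cells that share the blood with red cells, 5 were tested in Winnie, with 1 higher and 1 lower, and 6 in Winnie-Prolapse, with 2 higher and 2 lower. Gp1bb rose (0.75 and 1.41) while Itga2b fell (-1.0 and -0.69), and Pf4, at -0.34 and 0.07, did not pass. Ppbp, the platelet marker of highest CPM, was at 5.65 CPM at most in the controls. It reached 122 CPM in Winnie-Prolapse replicate 2, where the 13 markers summed to 145 CPM. Without Winnie-Prolapse replicate 6 the log2 change of Ppbp against C57BL/6 was 4.26 (edgeR adjusted p = 0.00833).

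Between Winnie-Prolapse and Winnie, the comparison that chose the members, few genes of these lists passed the wider limit of edgeR, beside 27.8% of all genes at an unadjusted p under 0.05. None of 12 red cell membrane genes passed (4 at an unadjusted p under 0.05), nor any of 8 red cell enzymes (2) or of 5 platelet markers (2). Among 8 erythroid regulators Trim10 was higher (3.06), among 15 heme synthesis genes Abcb6 was lower (-0.79), and among 10 clearance genes Hp (4.06) and Hmox1 (1.81) were higher, each also without Winnie-Prolapse replicate 6. Among 16 iron handling genes Trf (3.67) and Slc11a1 (1.37) were higher, and among 14 oxygen genes Adm (1.11), but without that library they were at 0.48, 1.30 and 0.80 and did not pass. The medians of these 8 lists ran from -0.03 for the red cell enzymes to 0.42 for the platelet markers.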

How the data were processed

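Poly(A) RNA of distal colon from 22 mice was sequenced by the authors as stranded, paired-end libraries of 100 bases, with 1 library a mouse, run through the RNAsik pipeline and counted per gene. The submitters' processing notes name STAR, featureCounts, limma and the genome build GRCm38; the strand setting and the handling of shared reads are not given in the sources used here. The deposited table holds raw whole-number read counts of 46078 genes, with no normalization, and every sample column was matched to a sample by its title. The labels give no batch and no number that pairs animals, so p-values measure the spread between these mice. No 2 libraries of a group agreed within sampling noise (lowest chi-square per degree of freedom 28.83).

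Counts were tested in R 4.3.3 with edgeR 4.0.16 (quasi-likelihood F test, TMM, filterByExpr, Benjamini-Hochberg over all genes tested), each comparison on its own 2 groups. A gene was called at an adjusted p under 0.001 and a 1.5-fold change, the limits in the study's methods, and counted at a wider limit of 0.05. Fold changes carry their standard errors. Ratios and CPM use library totals, and log2 CPM a prior count of 2. The alternatives were library totals, DESeq2 1.42.0, limma-voom (limma 3.58.1), other count filters, sex as a covariate, all groups in 1 fit, scaling without the globin genes and each library left out. The procedure was tested on simulated data. Gene positions came from GENCODE vM21, promoters from RefSeq for 5 of the 6 genes.

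The members and the gene lists were chosen with earlier results of these data known. The genes named were the 6 members, the other globin genes with any count, from each further list up to 4 of highest mean CPM and up to 3 with the smallest adjusted p per comparison, and the 8 genes most like Alas2 or the summed globins with a mean of at least 0.5 CPM. Of 189 list genes 186 had a row, 5 of them under an older symbol. Intervals and detection limits cover counting error only. Some genes of the lists are not reported here by name.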

Additional observations from a re-analysis of the deposited data

Results flagged for a closer look

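In groups of 7 or 8 libraries, the highest or lowest library was set against the gap to its neighbour by Dixon's test at 95%. Of 42 groups of values 15 had such a library, and chance gives about 1 in 20 for independent, normally distributed values. The CPM values were skewed and many groups shared genes and libraries, so the 15 do not show an excess over chance.

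Winnie-Prolapse replicate 6, a female, stood above its group for Hbb-bs at 656.8 CPM (next 289.7), Hbb-bt at 25.99 CPM (next 10.23), Hba-a1 at 628.1 CPM (next 291.9), Alas2 at 53.19 CPM (next 25.02) and the 4 globin genes together at 1455 CPM (next 667.4). In the same library the milk protein genes took 18.02% of all counts (next 0.005472%), and its part in the globin values was not tested. These 5 values are not independent, because the members move together.

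In Winnie, replicate 6 was high for Hba-a2 at 12.71 CPM (next 5.086) and replicate 3 for Slc4a1 at 0.6555 CPM (next 0.2013). Per 1000 globin counts, Winnie replicate 3 held 16.9 Slc4a1 counts (next 4.167), Winnie replicate 2 held 58.23 Alas2 counts (next 28.81) and C57BL/6 replicate 4 held 6.633 Slc4a1 counts (next 2.422). The Hba-a2 share of alpha-globin was 33.57% in Winnie-Prolapse replicate 2 (next 21.74%), and the alpha share of globin was 80.13% in C57BL/6 replicate 2 (next 66.33%).

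The mitochondrial share was 8.558% in Winnie replicate 5 (next 6.335%). The milk protein genes took 0.002504% of the counts in C57BL/6 replicate 5 (next 0.0007432%).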

How the results depend on the processing

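No log2 change of a member between groups changed its direction under the alternatives run. The male minus female difference of Slc4a1, -0.02, became 0.09 on library totals, 0.21 with DESeq2 and 0.02 with no filter, and 6 of 72 interaction values of the members, which passed no test, changed sign. At the strict limit the number of members called in Winnie against C57BL/6 was 0, and it was 3 with DESeq2. In Winnie-Prolapse against C57BL/6 it was 1, and it was 0 with limma-voom and 0 with a filter of 10 counts in every library, which removed Slc4a1 from the test. At an adjusted p under 0.05 these counts were 5 and 4. In Winnie-Prolapse against Winnie the members were chosen for their rise, so their counts, 0 in edgeR and 6 with DESeq2 or at an adjusted p under 0.05, support nothing. Leaving out each library in turn left the strict counts at 0, 1 and 0. Leaving out Winnie-Prolapse replicate 6 for the gene lists was chosen after the data were seen. In Winnie-Prolapse against C57BL/6 the wider count was 2 on library totals, 1 with no filter, 1 with sex as a covariate, and 5 with DESeq2 or limma-voom. The counts called between males and females and by the sex interaction were 0 under each of the 4 alternatives, those of the interaction being chosen after the data were seen. Counts of all genes called at the strict limit also moved: 16 in Winnie against C57BL/6 became 8 on library totals, 1258 with DESeq2, 0 with limma-voom, 68 with no filter, 0 with at least 10 counts in every library and 199 with all groups in 1 fit. Those 3186 of Winnie-Prolapse against C57BL/6 became 5043 with DESeq2. Those of Winnie-Prolapse against Winnie, 0 in edgeR, were 678 with DESeq2 and 42 with all groups in 1 fit. Leaving out 1 library moved the first of these counts between 0 and 677, the highest without Winnie replicate 5, the second between 2517 and 3657 and the third between 0 and 1. The causes were not tested. No paired analysis was possible because the labels give no replicate number shared between groups. Depth limits Slc4a1 and Hbb-bt outside Winnie-Prolapse, where several libraries held 3 counts or fewer.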
